A study of Mus musculus with 6 samples.

Results

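Of the 26776 genes in the deposited count table, 157 were listed with 0 counts in every eGFPlo library and with at least 10 counts in every eGFPhi library. They were chosen by that rule alone, with symbols of immunoglobulin, Vpreb, Hox, Trim, small nucleolar and Snhg genes left out, which removed 3 genes (Hoxb9, Trim9 and Igkv8-21). The same rule turned round, 0 counts in eGFPhi and at least 10 in every eGFPlo library, found 138 genes. The counts that chose the 157 genes are a description, so no test of the eGFPhi against eGFPlo difference is given for any of them.

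The eGFPhi group held 3 RNA libraries of long-term haematopoietic stem cells (LT-HSCs) with high reporter fluorescence, and the eGFPlo group 3 libraries of LT-HSCs with low fluorescence. Both groups were sorted from bone marrow of Trim47+/eGFP mice, whose genotype name places an enhanced green fluorescent protein reporter on one allele of Trim47, a tripartite motif gene, so all 6 libraries share the reporter allele. The sources used here do not state the sort gate, the age or number of the mice, or whether each replicate is its own animal. Every p-value therefore measures only the spread between these libraries, which may be technical. In bulk RNA, fewer cells that use a gene and less of its RNA per cell cannot be told apart.

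LT-HSCs are rare, mostly quiescent cells of the bone marrow that self-renew and give rise to all blood lineages. Stem cell populations are known to hold low levels of transcripts typical of other tissues, and the marrow niche around them consists of stromal, endothelial and bone-forming cells that supply ligands and matrix. The 157 genes are described by the known role of their products.

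Libraries summed to 11221070 to 26058391 counts in eGFPhi and 11706873 to 18151852 counts in eGFPlo. Trim47 averaged 23.7 ± 2.29 CPM (a gene's counts relative to its library's total, with TMM scaling) in eGFPhi and 8.12 ± 0.818 CPM in eGFPlo (SD, n = 3 each), a log2 fold change of 1.54 with SE 0.11 and an adjusted p of 1.69e-05 in edgeR's quasi-likelihood test. Over all genes, 11571 of 18081 tested genes (64.0%) passed an adjusted p threshold of 0.05, with 32.3% higher and 31.7% lower in eGFPhi. Summed levels of 20 HSC marker genes were 4068 to 4293 CPM in eGFPhi and 1855 to 1874 CPM in eGFPlo, and 18 of the 20 were higher in eGFPhi.

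A value of 0 in the eGFPlo columns has to be read with care, because exact zeros were more frequent than the next small counts. With the same symbols left out, 16370 genes had at least 10 counts in every eGFPhi library; of these, 157 summed to 0 counts over the eGFPlo libraries, 18 to 1 count, 28 to 2, 36 to 3 and 33 to 4. In the opposite direction, of 15836 genes with at least 10 counts in every eGFPlo library, 138 summed to 0 counts over the eGFPhi libraries and 8 to 1 count. By library, with the eGFPhi minimum met, 157 genes were at 0 in all 3 eGFPlo libraries. Another 22 were at 0 in 2 of them with at least 10 counts in the remaining one. A further 9 were at 0 in 1 library with at least 10 counts in both others. Genes with a smaller count in a remaining library, such as the 18 with a sum of 1, are in none of these numbers. The numbers therefore cannot show whether zeros came in all libraries of a group together. FPKM values were 0 wherever counts were 0. How these zeros arose was not tested, and the text therefore writes that a gene was listed at 0, not that it was absent.

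**Figure D1:**
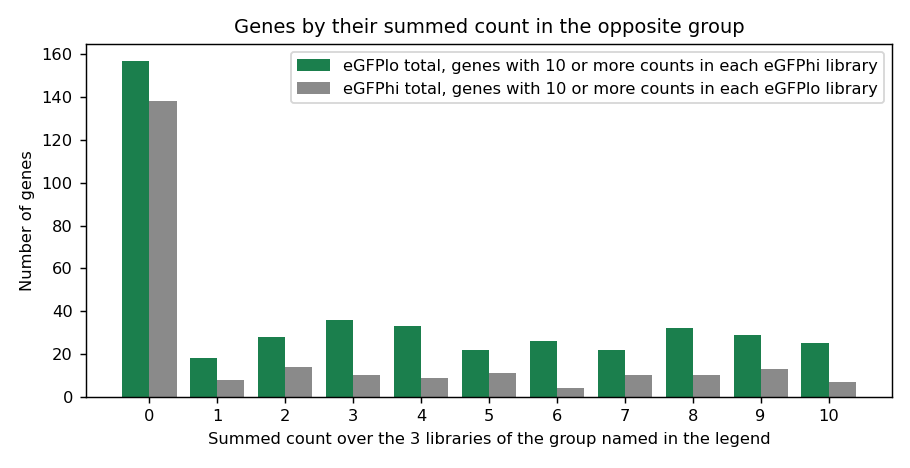
Bars give the number of genes (vertical axis) by their count summed over the 3 libraries of one group (horizontal axis), for genes with at least 10 counts in each library of the opposite group; green bars sum eGFPlo libraries and grey bars sum eGFPhi libraries. The bars at 0 reach 157 and 138 genes, and the bars at 1 reach 18 and 8.

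The genes were low in level. Their eGFPhi counts summed over 3 libraries were between 34 and 1856, with a median of 76. Mean eGFPhi levels ran between 0.664 and 32.7 CPM with a median of 1.34 CPM. The median over all genes in the table, including those below the count minimum of the rule, was 3.06 CPM. Of the 157, 35 genes were under 1 CPM, 112 between 1 and 5 CPM and 10 at 5 CPM or more. All 157 together held 357, 334 and 333 CPM in eGFPhi replicates 1 to 3, or 0.0357%, 0.0334% and 0.0333% of counts. One gene, Gm49368, held 9.58% of that sum, and the 7 of highest level held 29.4%. If the listed zeros are taken as counts, the limit that 0 counts allow over the eGFPlo group (3 counts, 0.0681 CPM) puts the levels at least 9.75-fold higher in eGFPhi for the lowest gene and at least 19.7-fold higher for the median gene; these bounds cover counting error only.

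The median coefficient of variation over the 3 eGFPhi libraries was 18.7%, against 21.7% from Poisson counting alone, and the median ratio of the observed to the Poisson value was 0.97. By quartile of level, the median was 19.7% for these genes and 22.4% for 437 other genes between 0.664 and 1.02 CPM, 19.5% and 18.9% for 622 others up to 1.34 CPM, and 17.7% and 17.4% for 1002 others up to 2.01 CPM. Above that, to 32.7 CPM, it was 15.6% for these genes and 8.5% for 8746 others. That last range is wide, and levels within it were not matched between these genes and the others. Whether these genes varied more there than others of like level was therefore not tested. Skint3, a butyrophilin-like gene of intraepithelial T cell selection, varied most against counting noise, with 36, 61 and 11 counts (3.2, 2.34 and 0.565 CPM) in eGFPhi replicates 1 to 3 and a ratio of 3.11. It was low in replicate 3 alone.

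The gene of highest level was Gm49368, a predicted protein-coding gene on chromosome 7, with 369, 862 and 625 counts in eGFPhi replicates 1 to 3 and 0 in each eGFPlo library. Its 32.8, 33.1 and 32.1 CPM (32.7 ± 0.523 CPM, SD, n = 3) varied little. Gm49368 lies at chr7:128062683-128128160 on GRCm38 over Itgam, the gene of the CD11b integrin subunit of myeloid cells, and shares 3450 of its 4803 exon bases (71.8%) with it on the same strand. Itgam was counted at 6.05, 6.57 and 5.45 CPM in eGFPhi, against 53.5, 58.6 and 50.5 CPM in eGFPlo, a log2 fold change of -3.16 with SE 0.09 and an adjusted p of 2.52e-07 by edgeR. The Itgam groups did not overlap.

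Summed over both genes, the locus had 38.9, 39.7 and 37.6 CPM in eGFPhi and 53.5, 58.6 and 50.5 CPM in eGFPlo, or 38.7 ± 1.08 CPM and 54.2 ± 4.08 CPM (SD, n = 3 each). The 8.94-fold lower level of Itgam alone was thus far larger than the difference of the summed level. The sources used here do not say how reads of shared exons were assigned, so the levels of the 2 genes taken singly are uncertain.

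**Figure D2:**
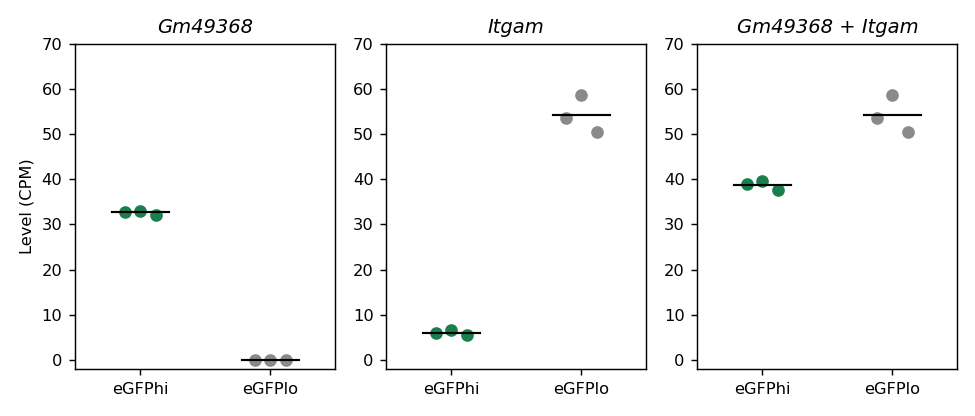
Level (CPM, vertical axis) of Gm49368, of Itgam and of their sum, with 1 point per library, eGFPhi in green and eGFPlo in grey, and a line at the mean of 3. Gm49368 was listed at 0 in eGFPlo, Itgam averaged 6.02 CPM in eGFPhi and 54.2 CPM in eGFPlo, and the sum averaged 38.7 CPM in eGFPhi and 54.2 CPM in eGFPlo.

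By type, 102 of the 157 genes were protein coding in GENCODE M21, or 65.0% against 56.8% of the table. Another 13 were antisense transcripts, 11 were unverified transcripts awaiting experimental evidence, 10 were lincRNAs, and 4 were processed pseudogenes, which made up 2.55% of these genes against 16.7% of the table. The coding genes had a median of 4.05 kb of exon, against 4.26 kb for all coding genes in the table, and a median gene body of 30.4 kb against 23.0 kb. The table also holds genes below the count minimum of the rule, so these comparisons are not with genes of like level. Shares among the 16370 genes that met the eGFPhi minimum were not computed. Predicted-model or clone names were carried by 55 genes, and 102 had gene symbols. They were spread over 19 autosomes and the X chromosome, with 19 on chromosome 7 (of 2004 genes of the table there), 17 on chromosome 2 (of 1968) and 10 on the X (of 1003), and 1 on an unplaced contig.

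Among the genes with a symbol, Smtnl1 had the highest level, with 135, 366 and 275 counts in eGFPhi replicates 1 to 3, or 13.4 ± 1.2 CPM (SD, n = 3). Smtnl1 encodes a smoothelin-like regulator of muscle contraction. The gene is short, so that it also led per length, at 7.61 CPM per kb of exon. The other contractile or motor gene, Dync1i1, a dynein intermediate chain, had 28, 40 and 21 counts. No eGFPlo library had a count of either gene.

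Membrane trafficking and synaptic genes numbered 9. Shisa9, an auxiliary subunit of AMPA-type glutamate receptors, had 164, 286 and 202 counts, with 14.6 CPM in eGFPhi replicate 1 and 11 and 10.4 CPM in replicates 2 and 3. Sytl5, a synaptotagmin-like protein that binds Rab27, had 113, 225 and 196 counts, or 9.59 ± 0.819 CPM. These 2 stood apart from the rest of the class. The synaptotagmin Syt14 had 35, 55 and 54 counts, and Rab39b, a small GTPase of vesicle transport, 23, 66 and 50. Tc2n had 24, 59 and 25 counts, and Prom2, a relative of the stem cell antigen CD133, 22, 41 and 35. The 9 levels ran between 1.21 and 12 CPM.

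Matrix and secreted proteins, with 12 genes, were the largest class among genes with a symbol. Mmp16, a membrane-anchored matrix metalloproteinase, had 144, 272 and 247 counts, or 12 ± 1.33 CPM, and stood well above the others. Matn4, a matrilin reported to act in stress-induced proliferation of mouse haematopoietic stem cells, had 46, 91 and 82 counts, or 3.93 ± 0.384 CPM. Kazald1, a secreted Kazal-domain protein, had 44, 65 and 63 counts (3.22 ± 0.710 CPM), and its level was highest in replicate 1. Mfap2, a microfibril protein of elastic fibres, had 28, 67 and 74 counts, and Svep1, a large matrix protein, 31, 52 and 39. Fndc4 had 17, 59 and 44 counts, and Tgm5, a transglutaminase, 24, 50 and 37. The others, among them the mucin genes Muc5ac and Muc19 and the surfactant protein gene Sftpb, lay between 1.0 and 1.81 CPM.

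Transcription factors and cofactors numbered 11. Runx1t1, a corepressor known as the fusion partner of RUNX1 in human acute myeloid leukaemia, had 132, 363 and 196 counts, or 11.9 ± 1.94 CPM, with replicate 2 highest at 13.9 CPM. Zkscan2, a zinc finger protein, had 25, 94 and 71 counts (2.23, 3.61 and 3.65 CPM) and was lowest in replicate 1. The nuclear receptor gene Rorb had 27, 60 and 54 counts, the LIM-domain protein gene Wtip 23, 67 and 29, and Ebf3, an early B cell factor family member also known from marrow stroma, 28, 34 and 33. The homeobox gene Meis2 had 19, 50 and 29 counts. Npas3, Isl1, Zfp37, Pparg and Ldb2 lay between 1.02 and 1.70 CPM.

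Related genes outside the 157 that could be counted in both groups were set beside these factors; apart from Runx1 and Meis1 they were picked after values were seen. Meis1, the homeobox paralogue used throughout the HSC compartment, averaged 519 ± 15.9 CPM in eGFPhi and 261 ± 4.72 CPM in eGFPlo (SD, n = 3 each; edgeR adjusted p = 2.14e-07), so Meis2 was a small part of the family's RNA. Runx1 averaged 328 ± 9.77 CPM in eGFPhi and 275 ± 16.3 CPM in eGFPlo (edgeR adjusted p = 0.00178). Ldb1, the widely used paralogue of the LIM-binding adaptor Ldb2, averaged 253 ± 5.22 CPM in eGFPhi and 166 ± 2.42 CPM in eGFPlo (edgeR adjusted p = 1.46e-06). Ebf1, the B lineage paralogue of Ebf3, lay the other way, at 1.26 ± 0.639 CPM in eGFPhi and 139 ± 6.38 CPM in eGFPlo (edgeR adjusted p = 1.38e-07). The 12 genes of the B cell list, Ebf1 among them, summed to 23.0 to 25.1 CPM in eGFPhi and 474 to 490 CPM in eGFPlo, and their part in that result was not tested.

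Signalling genes numbered 10. Dixdc1, a DIX-domain protein of Wnt signalling, had 62, 137 and 128 counts, or 5.79 ± 0.696 CPM. Ppp2r2b, a regulatory subunit of protein phosphatase 2A, had 57, 124 and 114 counts, or 5.23 ± 0.563 CPM. Both had their highest level in replicate 3. Prkd1, a protein kinase D gene, had 32, 69 and 49 counts, Ripor3 35, 56 and 51, the Rac-inactivating chimaerin gene Chn1 14, 67 and 44, and Plppr2 23, 58 and 32. The phosphatase subunit genes Ppp4r4 and Ppp1r14a and the kinase gene Pak7 completed the class with Sh3rf3, at 0.750 to 1.92 CPM.

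Receptors numbered 10 and ligands 7. Adgrg2, an adhesion G protein-coupled receptor, had 70, 123 and 131 counts, or 5.90 ± 1.04 CPM, lowest in replicate 2. Eda2r, a tumour necrosis factor receptor family member that binds the A2 form of ectodysplasin, had 29, 58 and 60 counts. Its ligand gene Eda, picked after values were seen, averaged 2.56 ± 0.291 CPM in eGFPhi and 1.02 ± 0.442 CPM in eGFPlo (SD, n = 3 each; edgeR adjusted p = 0.00616). The cannabinoid receptor gene Cnr1 had 20, 44 and 33 counts, the nicotinic receptor subunit gene Chrna7 16, 47 and 29, and Pkdrej 17, 35 and 35. Gfra4, Osmr, Hrh3, Adora1 and P2ry10b lay between 0.779 and 1.46 CPM.

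Osmr, the oncostatin M receptor subunit, had 11, 25 and 42 counts and was highest in replicate 3. Genes of its complex and ligands were also picked after values were seen. Il6st, which encodes the shared subunit gp130, averaged 53.5 ± 3.14 CPM in eGFPhi and 32.1 ± 5.33 CPM in eGFPlo (edgeR adjusted p = 0.000954), and Osm, the ligand, 3.91 ± 1.04 CPM in eGFPhi and 14 ± 1.19 CPM in eGFPlo (edgeR adjusted p = 6.61e-05; SD, n = 3 each). Lif, which signals through gp130 as well, had 16.8, 16.1 and 15.9 CPM in eGFPhi and 16, 6.36 and 5.87 CPM in eGFPlo (edgeR adjusted p = 0.0709). The Osm groups did not overlap, and eGFPlo replicate 1 reached the eGFPhi levels of Lif.

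Among the ligand genes, Ntf5, a neurotrophin gene, had the most counts with 24, 66 and 29. The tumour necrosis factor family ligand genes Tnfsf4 (OX40 ligand) and Tnfsf13b (BAFF) had 13, 27 and 27 and 10, 24 and 20 counts. Adipoq, which encodes the adipokine adiponectin, had 12, 36 and 21 counts, and the axon guidance gene Draxin 13, 26 and 20. Cbln3 and Cxcl9, an interferon-induced chemokine gene, had means of 1.02 and 0.844 CPM.

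Channels and transporters numbered 5. Ryr2, the calcium release channel of the cardiac sarcoplasmic reticulum, had 111, 216 and 164 counts, or 8.87 ± 0.878 CPM. Its exons are long, so that its level per length was 0.308 CPM per kb, below that of Sytl5 at 4.17 CPM per kb. Nipal2, of a family of magnesium transporters, had 42, 101 and 72 counts and the near-constant levels of 3.74, 3.88 and 3.70 CPM. Fxyd1, a regulator of the sodium pump, had 35, 83 and 50 counts, and Kcns1, a potassium channel subunit gene, had 14, 38 and 36.

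Junction and adhesion genes numbered 7. Ocln, which encodes the tight junction protein occludin, had 43, 134 and 94 counts, or 4.6 ± 0.689 CPM, and the others were at most 1.45 CPM. Vsig2 had 11, 44 and 33 counts, and Itgae, the integrin subunit CD103, 12, 24 and 22. The protocadherin genes Pcdhac1 and Pcdhac2 had 12, 26 and 18 and 10, 23 and 24 counts. These 2 share 2860 exon bases on the same strand with each other and with Pcdha7, Pcdha8, Pcdha9 and Pcdha11, so their counts are not independent and could be split among the cluster. Pcdha9 lay the other way, with 0, 0 and 0 counts in eGFPhi and 8, 6 and 17 in eGFPlo, and Pcdha8 had 13, 21 and 10 counts in eGFPhi and 4, 13 and 21 in eGFPlo. Dchs2 and Cadm3 had means of 0.882 and 0.830 CPM.

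The 6 metabolic genes lay between 0.733 and 1.93 CPM, with Nudt11 highest at 19, 73 and 25 counts, and Ptges3l, Chst7 and Car11 next. Ptges3l, with 22, 43 and 27 counts, shares 605 of its 2108 exon bases with Gm27029 on the same strand, which had 1, 5 and 2 counts in eGFPhi and 89, 215 and 166 in eGFPlo (edgeR adjusted p = 1.44e-05). Summed, the 2 genes averaged 1.79 ± 0.282 CPM in eGFPhi and 10.6 ± 3.90 CPM in eGFPlo (SD, n = 3 each), so the sum lay opposite to Ptges3l alone. Pdk4, a pyruvate dehydrogenase kinase gene induced by fasting, had 14, 16 and 14 counts. The 5 genes known from germ cells, among them the sperm-egg fusion gene Izumo1 with 15, 30 and 23 counts and Proca1, Tdrd6 and Tex29, lay between 0.813 and 1.24 CPM. Izumo1 shares 654 of its 2992 exon bases with Rasip1 on the same strand. Rasip1 had 51, 118 and 98 counts in eGFPhi and 4, 11 and 11 in eGFPlo. Whether reads of Rasip1 entered the counts of Izumo1 was not tested. The immune recognition genes were Skint3, the T cell receptor segment Trav6d-7 with 23, 36 and 25 counts, and the nonclassical MHC genes H2-M5 with 11, 36 and 29 and H2-T3 with 12, 28 and 16. The kelch genes Klhl13, Klhdc8a and Klhl31 lay between 1.14 and 1.90 CPM. Of the 6 genes placed in no class, Mroh7 was highest with 30, 87 and 59 counts, before Ccdc187 with 27, 71 and 48 and Ccdc159 with 22, 44 and 28. The 5 antisense or pseudogene symbols, with Unc45bos highest at 21, 56 and 54 counts, lay between 0.788 and 2.26 CPM.

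**Figure D3:**
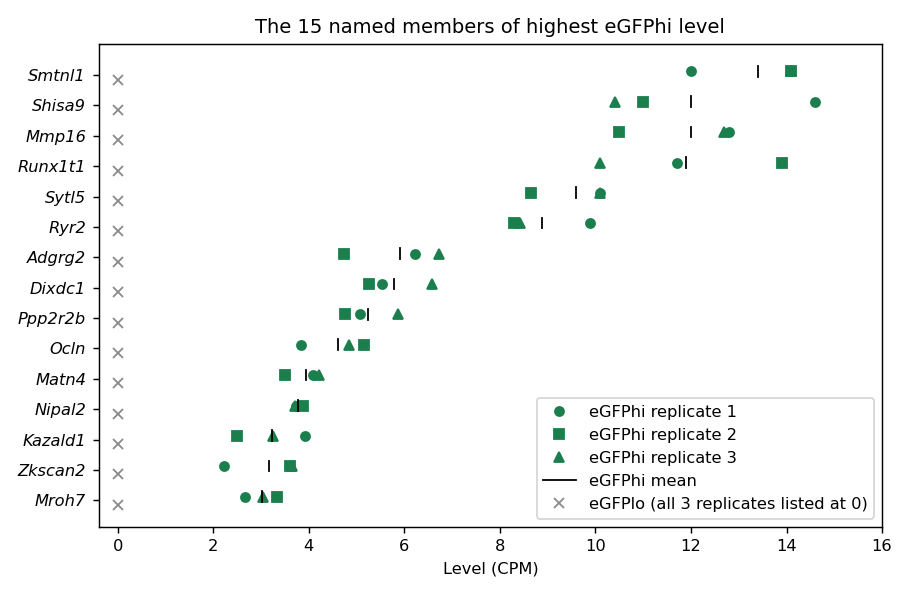
Level (CPM, horizontal axis) of the 15 genes with a symbol of highest eGFPhi mean, with a green point per eGFPhi library, a black line at the mean and a grey cross for the eGFPlo libraries, all listed at 0. The 6 genes Smtnl1 to Ryr2 average 8.87 CPM or more, and the next, Adgrg2, averages 5.90 CPM.

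**Figure D4:**
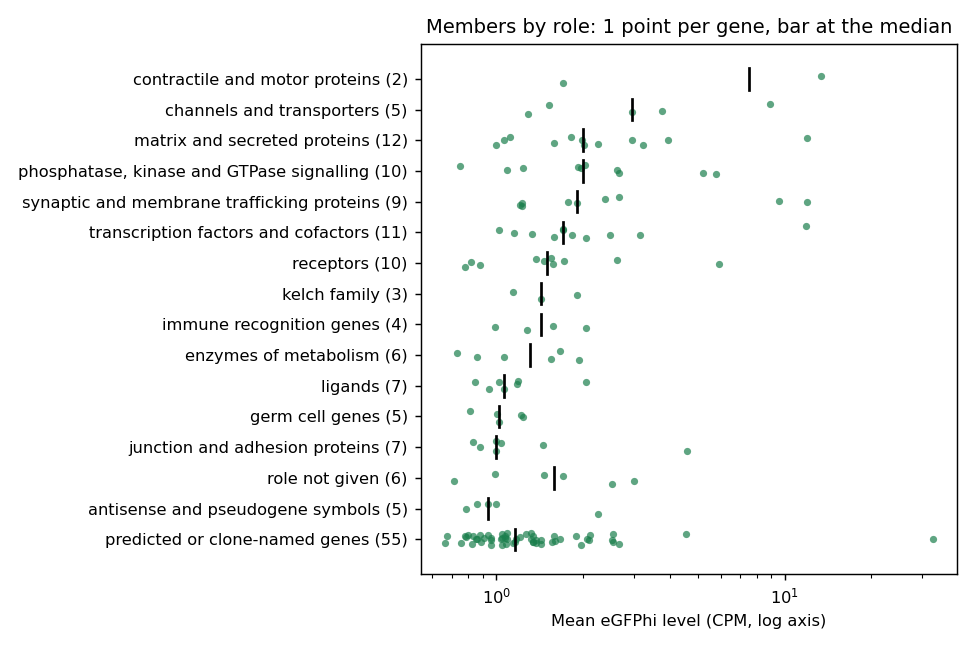
Mean eGFPhi level (CPM, log axis) of each of the 157 genes by role class, with 1 point per gene, a black bar at the class median and the number of genes in parentheses. The 55 predicted or clone-named genes have a median of 1.16 CPM, and Gm49368 is the point at 32.7 CPM.

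The predicted genes were next in the order of position. After Gm49368 the highest were Gm45131, with 59, 114 and 79 counts in eGFPhi replicates 1 to 3 (5.25, 4.38 and 4.06 CPM), and Gm17322, a lincRNA, with 23, 82 and 54 counts (2.05, 3.15 and 2.77 CPM). Gm45131 lies within Dlg2, a synaptic scaffold gene, on its strand, as do Gm45129 with 31, 58 and 51 counts and C030038I04Rik with 19, 50 and 40. Dlg2 itself was counted in both groups, at 50.1, 46.5 and 44.3 CPM in eGFPhi and 3.6, 4.82 and 3.65 CPM in eGFPlo, an 11.6-fold higher level in eGFPhi (edgeR adjusted p = 3.53e-07).

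In all, 27 of the 157 genes lay inside another gene, 18 of them on its strand and 9 on the opposite one, and 15 of the 18 shared no exon with their host. Of the 13 hosts on the same strand that could be tested, 9 were higher in eGFPhi, against 32.3% of all genes, and 1 was lower. Their median log2 fold change was 3.2. Of the 9 hosts on the opposite strand, 3 were higher and 2 lower, with a median of 0.07.

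The 9 higher hosts were Dlg2, Samd12, Pclo, Phactr1, Plxna2, Sorbs2, Ncam2, Chrm3 and Lhfp. Samd12, host of Gm23200, averaged 78.6 ± 3.10 CPM in eGFPhi and 18.9 ± 1.05 CPM in eGFPlo (SD, n = 3 each). Pclo, a presynaptic scaffold gene and host of Gm42446, averaged 25.7 ± 4.32 CPM in eGFPhi and 1.40 ± 0.166 CPM in eGFPlo. Ncam2, a neural adhesion molecule gene and host of Gm49555, had 127, 304 and 234 counts in eGFPhi and 2, 2 and 1 in eGFPlo. The lower host was E230029C05Rik, which holds Gm44861, at 0.605 ± 0.234 CPM in eGFPhi and 1.27 ± 0.182 CPM in eGFPlo (edgeR adjusted p = 0.0147). Whether reads of a host entered the counts of the gene inside was not tested.

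**Figure D5:**
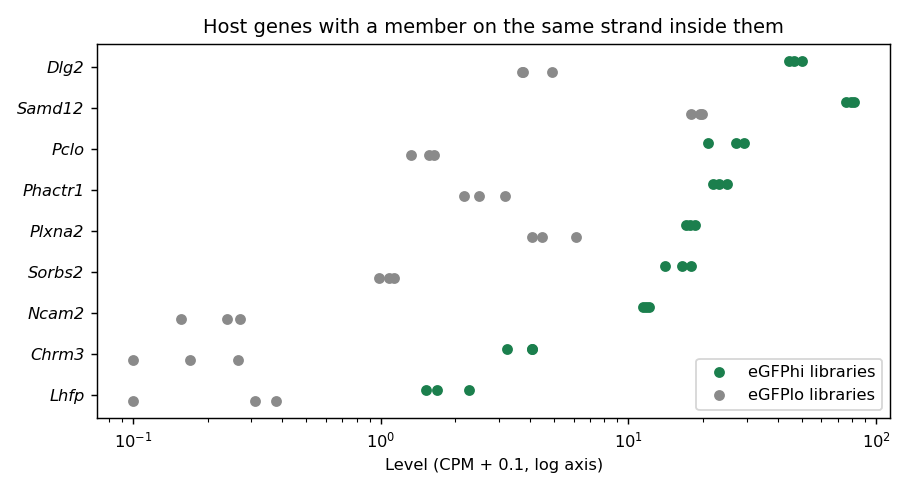
Level (CPM + 0.1, log axis) of the 9 host genes higher in eGFPhi that hold one or more of the 157 genes on their own strand, with 1 point per library, eGFPhi in green above eGFPlo in grey. No host overlaps between groups; Dlg2 averages 47.0 CPM in eGFPhi and 4.03 CPM in eGFPlo.

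Ldb2 gave a second such locus. It had 11, 30 and 18 counts in eGFPhi and 0 in eGFPlo, and 8 predicted genes lie over it on the same strand. Of these, 6 were listed at 0 in eGFPlo and 2 had a single eGFPlo count. Gm43508 had the most, with 35, 94 and 61 counts in eGFPhi and 0, 0 and 1 in eGFPlo, more than Ldb2 itself. Its 1 eGFPlo count kept it out of the 157.

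Exon sharing touched 32 of the 157 genes, 11 with a gene on the same strand and 22 with one on the opposite strand. The kit was stranded per the labels' protocols, but the sources used here do not say whether counting used strand, so reads of a gene and its antisense partner may not have been told apart. Without any exon shared, 125 genes remained. Apart from Pcdhac1 and Pcdhac2, 4 pairs of the 157 genes lay within 100 kb of each other: Ccdc159 and Plppr2 were 1160 bases apart, Gm45808 and Ntf5 48804, Gm14302 and Matn4 54735, and Izumo1 and Car11 71019.

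Neighbouring genes were close to the background. Of 545 tested genes within 100 kb of the 157, 199 (36.5%) were higher and 166 (30.5%) lower in eGFPhi, against 32.3% and 31.7% of all genes, and their median log2 fold change was 0.07. Relatives by symbol stem numbered 264 tested genes of 59 stems, of which 101 (38.3%) were higher and 72 (27.3%) lower, with a median of 0.13. Relatives and neighbours thus moved in both directions. The neighbours of smallest p were Cdk6, Plxnc1, Nfe2l1, Abi3, Samd12 and Itgam. Genes that overlap one of the 157, such as hosts, were counted as neighbours, and Samd12 and Itgam are among them. Cdk6, a cell cycle kinase gene 93621 bases away from Gm43825, averaged 434 ± 5.17 CPM in eGFPhi and 1068 ± 7.74 CPM in eGFPlo (SD, n = 3 each; edgeR adjusted p = 5.63e-09), and Plxnc1, next to Gm48689, 330 ± 6.70 CPM in eGFPhi and 126 ± 1.12 CPM in eGFPlo (adjusted p = 3.53e-08).

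Among the most abundant relatives, Adgrg1 averaged 679 ± 21.7 CPM in eGFPhi and 452 ± 22.3 CPM in eGFPlo (SD, n = 3 each; edgeR adjusted p = 1.17e-05), against the 5.90 CPM of Adgrg2. Car2, a carbonic anhydrase gene related to Car11, averaged 390 ± 15.4 CPM in eGFPhi and 236 ± 4.99 CPM in eGFPlo (edgeR adjusted p = 1.93e-06). Kcnq1ot1, Muc13 and Vps13b were also higher in eGFPhi, at 1.38-, 1.15- and 1.18-fold, and Pabpc1 was lower, at a log2 fold change of -0.17 (edgeR adjusted p of 0.000178 or smaller for each). Dync1h1 and Ripor1 did not pass the threshold, at log2 fold changes of 0.03 and -0.08 (edgeR adjusted p = 0.198 and 0.051).

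Of 13 marker lists for cell types of the marrow and of other tissues, 1 held any of the 157 genes, the stromal and osteolineage list with Adipoq. On that list, 3 of 9 tested genes were higher in eGFPhi, Adipoq among them by the rule, and 3 lower, against 32.3% and 31.7% of all genes, with a median log2 fold change of -0.22. Its summed level was 165 to 168 CPM in eGFPhi and 183 to 190 CPM in eGFPlo. Bglap, Ibsp, Lum and Sp7 were not in the table. The 5 list genes Adipoq, Prrx1, Dcn, Grem1 and Lepr were at 0 in every eGFPlo library and together had 41, 79 and 57 counts in eGFPhi replicates 1 to 3. Lepr, which marks the stromal cells that surround HSCs, had 6, 13 and 14 eGFPhi counts, and Cxcl12, their main chemokine, had 56, 120 and 66 counts in eGFPhi and 8, 8 and 28 in eGFPlo. The 3 list genes lower in eGFPhi were Thy1 at 4.24 ± 0.336 CPM in eGFPhi and 11.9 ± 0.974 CPM in eGFPlo, Pdgfrb at 12.7 ± 3.97 CPM in eGFPhi and 25.2 ± 1.46 CPM in eGFPlo, and Alpl at 0.325 ± 0.283 CPM in eGFPhi and 14.8 ± 2.29 CPM in eGFPlo (SD, n = 3 each). List genes thus lay in both directions, and their part in the levels of Adipoq, Ebf3 and Pparg was not tested.

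Further genes of adipocytes and of the Pparg complex were picked after values were seen. Fabp4, a target of Pparg, had 22, 30 and 24 counts in eGFPhi and 3, 3 and 5 in eGFPlo (edgeR adjusted p = 0.000597). Cd36 had 2, 10 and 3 counts in eGFPhi and 7, 12 and 33 in eGFPlo and was too low to be tested. Rxra, the partner receptor of Pparg, averaged 18.0 ± 1.55 CPM in eGFPhi and 14.2 ± 1.12 CPM in eGFPlo (SD, n = 3 each; edgeR adjusted p = 0.0203). The paralogue Ppard did not pass the threshold, at 18.2 ± 2.31 CPM in eGFPhi and 16.4 ± 2.21 CPM in eGFPlo (edgeR adjusted p = 0.31). Ppara had 0, 0 and 0 counts in eGFPhi and 0, 0 and 1 in eGFPlo. The adipocyte gene Plin1 was looked up as well and was not in the table.

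The neuron and glia list, which could relate to the synaptic genes, held none of the 157, and 9 of its 22 genes, including Snap25, Syt1 and Stmn2, were not in the table. Of its 5 tested genes 3 were higher and 0 lower in eGFPhi, and its summed level was 212 to 226 CPM in eGFPhi and 141 to 157 CPM in eGFPlo. On the muscle list, which could relate to Smtnl1 and Ryr2, 9 of 18 genes, including Ckm, Des, Myh1 and Actc1, were not in the table. Its summed level was 13.7 to 14.2 CPM in eGFPhi and 20.9 to 22.7 CPM in eGFPlo, with 1 gene higher and 2 lower of 4 tested. On the epithelial list, which could relate to Ocln, 3 genes were higher and 2 lower of 6 tested. Its sums were 109 to 114 CPM in eGFPhi and 60.2 to 62.5 CPM in eGFPlo. Krt5 and Krt14 were not in the table. Over all tested genes, 32.3% were higher and 31.7% lower in eGFPhi, and each of these lists had few tested genes.

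The blood and vessel lists held none of the 157 genes either. In eGFPhi, 14 of 18 tested megakaryocyte genes and 10 of 15 endothelial genes were higher, with 1 and 4 lower, against 32.3% and 31.7% of all genes. Their summed levels were 1267 to 1295 CPM in eGFPhi and 357 to 387 CPM in eGFPlo for the megakaryocyte list, and 553 to 580 CPM in eGFPhi and 270 to 283 CPM in eGFPlo for the endothelial list. Among the lists of other blood cells the counts by direction differed. Lower in eGFPhi were 6 of 16 neutrophil genes, 8 of 10 monocyte and macrophage genes, 11 of 12 mast cell, basophil and eosinophil genes, 9 of 14 erythroid genes, 9 of 12 B cell genes and 8 of 10 T and NK cell genes. Higher were 3, 1, 0, 1, 1 and 1 of them in the same order. The neutrophil list had a median log2 fold change of -0.04, with sums of 473 to 484 CPM in eGFPhi and 5349 to 5442 CPM in eGFPlo. Most of the eGFPlo sum was Mpo, at 189 ± 3.44 CPM in eGFPhi and 3885 ± 79.3 CPM in eGFPlo. Elane followed, at 37.8 ± 2.89 CPM in eGFPhi and 856 ± 14.1 CPM in eGFPlo (SD, n = 3 each). Another 7 of the 16 tested genes, Ngp, Ltf, Camp and Lcn2 among them, did not pass the threshold. The erythroid sum was 495 to 532 CPM in eGFPhi and 477 to 494 CPM in eGFPlo, higher in eGFPhi although most of its tested genes were lower. Car2, the 1 list gene higher in eGFPhi, made up most of the eGFPhi sum, at 390 ± 15.4 CPM in eGFPhi and 236 ± 4.99 CPM in eGFPlo. Sums were 130 to 140 CPM in eGFPhi and 187 to 191 CPM in eGFPlo for the monocyte and macrophage list, and 40.9 to 44.6 CPM in eGFPhi and 169 to 194 CPM in eGFPlo for mast cells, basophils and eosinophils. The T and NK cell sum was 28.3 to 31.0 CPM in eGFPhi and 137 to 148 CPM in eGFPlo.

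The rule's thresholds divided genes of similar values. At its lower edge, 18 genes had a smallest eGFPhi count of 10, among them Gm42421 with 10, 14 and 11, Wdr54 with 14, 10 and 10, Oxct2b with 10, 18 and 12 and Pak7 with 10, 18 and 13. Just outside, 27 genes with no eGFPlo count had a smallest eGFPhi count of 9, such as Cyp27b1 with 9, 45 and 27, Clip4 with 9, 22 and 29, Noxa1 with 9, 29 and 22 and 5730405O15Rik with 9, 31 and 20. A further 18 genes met the eGFPhi minimum with a single eGFPlo count, such as Spats2l with 34, 87 and 55 counts in eGFPhi, Tacr1 with 33, 39 and 36 and Osbp2 with 21, 52 and 40, each with 0, 0 and 1 in eGFPlo.

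RefSeq promoter windows (GRCm38.p6, 250 bases before to 50 after the start) were found for 91 of the 157 genes, 126 windows in all. The median GC content was 56.3% against 52.7% over all 32851 windows in the table, and the median number of CG pairs 9.5 against 7. Of 8 short motifs searched on both strands, CACCC, bound by Klf factors, was in 71.4% of windows against 57.5% of all. TGTGGT, bound by Runx factors, was in 7.94% against 16.8%, and CCGGAAG, bound by Ets factors, in 3.97% against 8.86%. The others differed by less than 3 percentage points. GATAAG, bound by Gata factors, was in 7.94% against 7.44%, and CAGCTG, bound by bHLH factors, in 17.5% against 16.3%. CACGTG, the site of Myc, was in 5.56% against 7.15%. TGACTCA, the site of Fos and Jun, was in 7.14% against 5.20%. The core promoter box TATAAA was in 11.1% against 13.6%. These shares are descriptions with no test, and a match is not a binding site. The windows compared were not matched by level, gene type or GC content, and some genes gave several windows.

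The single windows of 4 genes of high level show how unlike these promoters are. They are printed 5′ to 3′ with motif matches in capitals, CACCC reading GGGTG on the other strand. The Smtnl1 window (chr2:84822603-84822902, minus strand) holds 2 adjoining CACCC matches at 56.0% GC, and the Sytl5 window (chrX:9885371-9885670, plus strand) holds none of the 8 motifs at 37.0% GC and 1 CG pair. The Ryr2 window (chr13:12106896-12107195, minus strand) holds 1 CACCC match at 65.3% GC, and the Adgrg2 window (chrX:160390440-160390739, plus strand) 1 CACCC and 1 CAGCTG match at 74.0% GC with 30 CG pairs.
Smtnl1: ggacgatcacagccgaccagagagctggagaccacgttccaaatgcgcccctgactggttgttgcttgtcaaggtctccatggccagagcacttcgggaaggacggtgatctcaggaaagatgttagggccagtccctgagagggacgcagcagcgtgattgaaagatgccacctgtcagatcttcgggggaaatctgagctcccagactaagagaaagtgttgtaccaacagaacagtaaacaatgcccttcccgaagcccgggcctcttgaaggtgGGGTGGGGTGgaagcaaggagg
Sytl5: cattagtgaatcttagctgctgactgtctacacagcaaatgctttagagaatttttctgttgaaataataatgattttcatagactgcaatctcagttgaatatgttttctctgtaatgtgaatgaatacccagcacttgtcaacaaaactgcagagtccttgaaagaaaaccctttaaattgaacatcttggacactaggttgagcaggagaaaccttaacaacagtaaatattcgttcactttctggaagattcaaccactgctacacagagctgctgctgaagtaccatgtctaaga
Ryr2: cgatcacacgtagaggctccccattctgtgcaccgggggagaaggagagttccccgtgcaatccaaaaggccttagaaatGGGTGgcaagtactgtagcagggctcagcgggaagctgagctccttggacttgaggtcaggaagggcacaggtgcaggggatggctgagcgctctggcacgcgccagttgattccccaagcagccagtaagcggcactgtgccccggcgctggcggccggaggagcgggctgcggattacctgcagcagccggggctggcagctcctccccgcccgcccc
Adgrg2: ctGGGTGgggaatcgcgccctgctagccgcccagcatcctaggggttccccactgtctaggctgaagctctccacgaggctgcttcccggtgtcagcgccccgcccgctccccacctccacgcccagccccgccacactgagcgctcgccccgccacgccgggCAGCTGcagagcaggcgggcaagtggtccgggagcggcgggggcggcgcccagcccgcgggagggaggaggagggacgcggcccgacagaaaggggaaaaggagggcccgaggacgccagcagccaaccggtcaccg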

How the data were processed

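Poly-A RNA was sequenced from 6 libraries, 3 eGFPhi and 3 eGFPlo. Per the file headers, the deposited table holds raw counts for each gene, with FPKM values (counts per length and library total) that the authors derived from them. The submitters' processing notes name CASAVA 1.8, HISAT2, StringTie and edgeR and the builds hg38 and GRCm38, without roles; how reads were counted, with or without strand and where genes overlap, is not given in the sources used here. No other column of sample values was present.

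Tests used edgeR 4.0.16 under R 4.3.3 (TMM factors, filterByExpr with a minimum count of 10 and minimum total of 15, quasi-likelihood F test on group, Benjamini-Hochberg over 18081 genes, threshold 0.05) and limma 3.58.1. CPM uses TMM factors. Of the 157 genes, 143 passed the filter through their eGFPhi counts and 14 did not. The 143 are part of the 18081 genes of the fit and of its totals, but no test of any single one is reported. FPKM served to check the zeros and was not otherwise used. The pipeline was tested on simulated data. Positions come from GENCODE M21, which lists 156 of the 157 genes, 153 with the same coordinates. Level per length is CPM over merged exon kb.

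The genes, lists and tests were chosen with earlier results of these data known. Genes were named by level: the 15 highest with a symbol, the 3 highest predicted genes, up to 4 more per role class (classes made from gene names), 4 at each edge of the rule, the most abundant relative of each of 10 stems, and the 6 neighbours of smallest p. Stems had at least 3 letters and at most 60 genes. Other named genes were chosen after their values were seen. The values of 1 gene that the rule selects are not reported here. Replicate numbers are shared between groups with no label that ties them to an animal or day, and same-numbered libraries did not deviate together (residual r = -0.0133, 0.000555 and -0.0108), so groups were compared unpaired. Alternatives were other size factors, filters, count minimums and windows, DESeq2 1.42.0, limma-voom, an assumed coefficient of variation of 0.2 and leaving out each library. Bounds against 3 counts cover counting error only.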

Additional observations from a re-analysis of the deposited data

How the results depend on the processing

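The number of genes that met the rule followed the count minimum: 375 at a minimum of 5 and 54 at 20, with 354 and 53 in the opposite direction. Leaving out 1 library gave 158 to 320, as it removes a condition and can only add genes; the number was 320 without eGFPhi replicate 1, the shallowest library, and 235 without eGFPlo replicate 3. In the opposite direction the range was 143 to 210, with 210 without eGFPlo replicate 1, and 220 with no names left out. With counts scaled to the smallest library, 105 genes met the rule and 95 the opposite one. Without Gm49368 the summed eGFPhi level was 309 CPM, against 341 CPM. With no exon shared, an alternative chosen after the data were seen, 125 genes were left.

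Of all genes, 11571 passed the threshold; this was 6619 with an assumed coefficient of variation of 0.2 (0.0941 was estimated), and relatives numbered 97 instead of 173 and neighbours 208 instead of 365. Neighbours within 50 kb numbered 221 and within 500 kb 1187, as fewer or more genes were counted. Leaving out 1 library gave 10618 to 11427 genes. With the replicate block, 10965 genes, 161 relatives, 352 neighbours and 118 marker genes passed; the block changed no count by over 1.5 times. For 37 named genes outside the 157, no alternative reversed a direction, 442 values kept their side of the threshold, 26 lost it and 6 gained it; Pabpc1, Runx1, Kcnq1ot1, Muc13 and Vps13b lost it at the assumed coefficient of 0.2. At 10 to 1856 counts, depth limits each level, and a listed 0 may not be a true one.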
